A study of Mus musculus with 4 samples.

Results

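Reported miR-142 targets with roles in signalling and gene regulation were read in mouse dendritic cells (DCs) with and without the microRNA. The list held 9 genes: Il6, Il6st, Adcy9, Gnaq, Socs1, Nfe2l2, Sirt1, Hmgb1 and Ash1l. Of these, 8 had a probe set annotated to that gene alone, out of 19938 genes measured in this way, and each of the 8 had 1 such probe set. The probe annotation used here names no probe set for Ash1l alone, and the gene was not analysed. The list was drawn up by name from reports of targeting, with earlier results of these data known.

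Bone marrow cells of C57BL/6 mice, either miR-142+/+ (wt) or miR-142-/- (ko), were cultured with the cytokine Flt3-L (200 ng/ml) for 8 days, which drives them towards DCs. B220-negative, CD11c+ cells were then sorted into CD4-equivalent DCs (CD172+ CD24low CD11b+) and CD8-equivalent DCs (CD172- CD24+ CD11blow). Each combination of genotype and subset was measured on 1 Affymetrix array, so there are 4 arrays and no replicates. Sex, age and the number of mice or cultures behind an array are not given in the labels, nor is the extent of the deletion. A bulk array cannot tell fewer expressing cells from less RNA per cell.

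A microRNA pairs with messenger RNAs mainly through its seed, bases 2 to 8, and lowers the stability or translation of the transcripts it binds. Loss of a microRNA can therefore raise a direct target's protein with or without a change in its mRNA, and only mRNA was measured here. miR-142 is made throughout the blood lineages, and both arms of its hairpin are used. Il6 in DCs and Adcy9 in T cells have been reported as targets of the 3p arm.

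The mature products of the locus are shown because a gene is called a target by its pairing with one of them. Each is written 5′ to 3′ with the seed in capitals, from RefSeq on GRCm38.p6, and all come from chromosome 11.
miR-142a-3p, plus strand, chr11:87756903-87756925: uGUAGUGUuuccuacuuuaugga
miR-142a-5p, plus strand, chr11:87756867-87756887: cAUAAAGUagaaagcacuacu
miR-142b, minus strand, chr11:87756906-87756925: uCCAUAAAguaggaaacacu
The hairpin that carries both miR-142a arms is shown next, with the 5p and then the 3p arm in capitals.
Mir142 hairpin, plus strand, chr11:87756864-87756927: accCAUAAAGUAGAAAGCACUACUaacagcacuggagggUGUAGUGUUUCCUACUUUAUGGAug
The 3 seeds differ, and none is shared with any other of the 1738 mature mouse microRNAs in the table. A perfect seed partner in a transcript would read ACACUAC for miR-142a-3p, ACUUUAU for miR-142a-5p and UUUAUGG for miR-142b. miR-142b is read from the opposite strand over 20 of the bases of miR-142a-3p, and it holds the 5p seed at its positions 4 to 10. The locus can thus give 3 products with different seeds. Transcript sequences of the listed genes were not used here, so sites in them are not shown.

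Levels are the deposited log2 values of RMA, a method that corrects background, normalises the arrays to each other and summarises the probes of a set. One unit is a doubling. A value below 5.68, the median over probe sets annotated to 1 gene, was treated as uninformative and is called below the floor. The Mir142 probe set read 10.37 and 9.87 on the wt arrays and 4.92 and 4.79 on the ko arrays. Of the DC markers used for the sort, Sirpa (CD172a) read 12.11 and 11.92 on the CD4-equivalent arrays against 9.69 and 9.67 on the CD8-equivalent arrays. Cd24a read 10.98 and 12.76 on the wt CD4- and CD8-equivalent arrays and 11.98 and 12.72 on the ko arrays, so ko CD4-equivalent DCs lay 1.00 above wt in this sort marker. Array medians lay between 5.87 and 5.94, and 9774 to 9821 genes reached the floor on an array.

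Markers of the DC subsets and of other cell types differed between arrays. The CD8-equivalent DC list summed on the linear scale to 12400 in wt and 20018 in ko CD4-equivalent DCs, and to 30380 and 28915 in CD8-equivalent DCs. In the CD4-equivalent pair 4 of its genes were at least 2-fold higher in ko, namely Clec9a (3.07), Cadm1 (2.67), Irf8 (1.29) and Cd24a. In the CD8-equivalent pair 3 of its 10 genes were higher in ko, and Itgae, at 7.42 in wt, lay below the floor in ko. The CD4-equivalent DC list summed to 20306 in wt and 18921 in ko CD4-equivalent DCs, and to 3846 and 3916 in CD8-equivalent DCs. In the CD4-equivalent pair 3 of its 10 genes were at least 2-fold lower in ko (Clec4a2, Clec4a4 and Ltb) and 1 at least 2-fold higher (Mgl2). Clec4a2 was also lower in the CD8-equivalent pair (-1.20). Neutrophil markers reached the floor for 3 of 12 genes in wt and 11 of 12 in ko CD4-equivalent DCs, with summed linear levels of 840 and 4119. On the CD8-equivalent arrays 0 and 1 of the 12 did, with sums of 376 and 522. Macrophage and monocyte markers reached the floor for 8 of 10 genes on every array but ko CD8-equivalent, where 4 did, and their summed level there was 4245 against 9339 in wt. Plasmacytoid DC markers summed to 5982 in wt and 10501 in ko CD4-equivalent DCs, and to 12142 and 14416 in CD8-equivalent DCs. Stem and progenitor cell markers summed to 4698 and 5916 in wt CD4- and CD8-equivalent DCs and to 4984 and 8454 in ko, and of those compared 5 of 6 and 5 of 7 were higher in ko. The part of these cells in the differences described next was not tested. Of 5 B cell markers, Cd79a, Ms4a1 and Pax5 lay below the floor on all arrays, Cd79b read 9.60 to 9.90, and Blnk was higher in ko by 1.26 and 0.41. Of 6 T and NK cell markers, 5 lay below the floor on all arrays, and Cd2 reached it on the ko CD8-equivalent array alone (6.61).

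Over the listed genes, loss of miR-142 went with small differences. None of the 6 members above the floor reached 2-fold between ko and wt in either subset, where 2.35% of 9978 genes did in CD4-equivalent and 2.15% of 9972 genes in CD8-equivalent DCs. Hmgb1 and Gnaq stood highest, and mainly in CD8-equivalent DCs, where ko was 1.65-fold and 1.5-fold above wt. Adcy9 and Il6st followed there at 1.21-fold and 1.15-fold. Sirt1 and Nfe2l2 differed by at most 1.02-fold in both subsets, and Il6 and Socs1 lay below the floor on all 4 arrays.

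**Figure D1:**
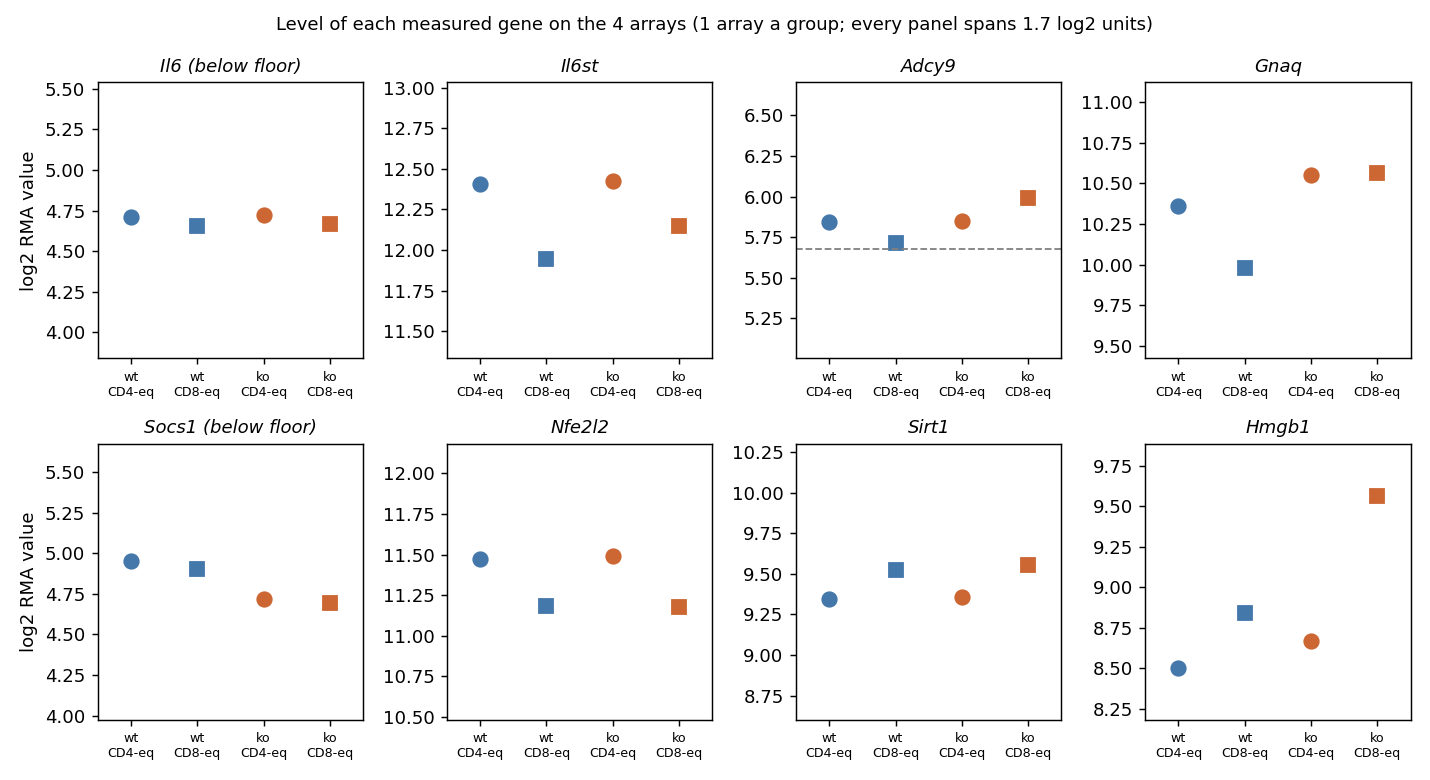
Log2 RMA value of each measured gene on the wt (blue) and ko (orange) arrays of CD4-equivalent (circles) and CD8-equivalent (squares) DCs, 1 array a group. Every panel spans the same log2 width around its own gene, and the dashed line marks the floor of 5.68; Hmgb1 in ko CD8-equivalent DCs (9.56) and Gnaq in wt CD8-equivalent DCs (9.98) stand apart from the other arrays of their gene.

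The first group of members covers cytokine signalling. Il6 encodes interleukin-6, a cytokine made by activated DCs. Its probe set read 4.71 in wt CD4-equivalent, 4.66 in wt CD8-equivalent, 4.72 in ko CD4-equivalent and 4.67 in ko CD8-equivalent DCs. These values span 0.064 log2 units, all below the floor, so the arrays neither show Il6 mRNA in these cells nor bound a difference in it. No stimulus of the cells is named in the labels.

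Il6st encodes gp130, the signal-transducing chain shared by the receptors of interleukin-6 and its relatives. It read 12.41 in wt CD4-equivalent, 11.94 in wt CD8-equivalent, 12.42 in ko CD4-equivalent and 12.15 in ko CD8-equivalent DCs. The CD8-equivalent arrays were both lower than the CD4-equivalent arrays, and the genotypes overlapped. On the log2 scale ko exceeded wt by 0.02 for the CD4-equivalent pair and 0.20 for the CD8-equivalent pair.

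Socs1 encodes a suppressor of cytokine signalling that blocks Janus kinases. Its values were 4.95 in wt CD4-equivalent, 4.90 in wt CD8-equivalent, 4.72 in ko CD4-equivalent and 4.69 in ko CD8-equivalent DCs. Both ko arrays were the lower ones (-0.23 and -0.21 on the log2 scale), but all lay below the floor, where differences cannot be read as a change in mRNA.

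The G protein and cyclic AMP group holds the member with the clearest split of genotypes. Gnaq encodes the alpha subunit of Gq, which couples receptors to phospholipase C beta and so to calcium release. It read 10.36 in wt CD4-equivalent, 9.98 in wt CD8-equivalent, 10.55 in ko CD4-equivalent and 10.56 in ko CD8-equivalent DCs. Both ko arrays lay above both wt arrays, and the wt CD8-equivalent array was the low one. The difference of ko and wt was 0.19 for the CD4-equivalent pair and 0.58 for the CD8-equivalent pair. The difference of CD8- and CD4-equivalent DCs was -0.38 in wt and 0.01 in ko.

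Adcy9 encodes an adenylyl cyclase, an enzyme that makes cyclic AMP. Its values were close to the floor, at 5.85 in wt CD4-equivalent, 5.71 in wt CD8-equivalent, 5.85 in ko CD4-equivalent and 5.99 in ko CD8-equivalent DCs. Both ko arrays again lay above both wt arrays, but by 0.002 for the CD4-equivalent pair, which is no visible difference. The CD8-equivalent pair differed by 0.28.

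The remaining members act in the nucleus or, for Hmgb1, also outside the cell. Nfe2l2 encodes Nrf2, the transcription factor of the antioxidant response. It read 11.47 in wt CD4-equivalent, 11.18 in wt CD8-equivalent, 11.49 in ko CD4-equivalent and 11.17 in ko CD8-equivalent DCs. The values split by subset and not by genotype, with ko and wt 0.02 and -0.008 apart.

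Sirt1 encodes an NAD-dependent deacetylase of histones and transcription factors. It read 9.35 in wt CD4-equivalent, 9.52 in wt CD8-equivalent, 9.36 in ko CD4-equivalent and 9.55 in ko CD8-equivalent DCs. Here the CD8-equivalent arrays were the higher ones, and the genotypes differed by 0.01 and 0.03.

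Hmgb1 encodes a chromatin protein that acts as an alarm signal when it leaves a cell. Its single-gene probe set read 8.505 in wt CD4-equivalent, 8.84 in wt CD8-equivalent, 8.67 in ko CD4-equivalent and 9.56 in ko CD8-equivalent DCs. The ko CD8-equivalent array stood 0.72 above any other. Ko exceeded wt by 0.16 for the CD4-equivalent pair and 0.72 for the CD8-equivalent pair, and CD8-equivalent exceeded CD4-equivalent DCs by 0.34 in wt and 0.90 in ko.

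Set against all genes, members were more often higher in ko, but most differences were small and some counts moved with the scaling. In CD4-equivalent DCs 6 of 6 members that reached the floor were higher in ko, as were 36.2% of all genes compared, but 4 of them were 0.002 to 0.02 apart from wt. In CD8-equivalent DCs 5 of 6 were higher in ko, against 50.7% of all genes, and 6 of 6 after cyclic loess or 4 of 6 after median centring. Members higher in ko in both subsets were 5 of 6 (6 after cyclic loess, 4 after median centring), against 24.5% of the genes fitted. All-gene shares given here and below are those of the main scaling. The median of all genes compared in CD4-equivalent DCs moved from -0.08 to 0.004 after cyclic loess. In CD8-equivalent DCs it moved from 0.004 to -0.07 after median centring. The members' median difference was 0.02 for the CD4-equivalent and 0.24 for the CD8-equivalent pair, beside medians of -0.08 and 0.004 over all genes compared. With Il6 and Socs1 included it was 0.01 and 0.12. In CD8-equivalent DCs, Hmgb1 lay at percentile 97.3 and Gnaq at percentile 95.4 of the differences of all genes compared.

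**Figure D2:**
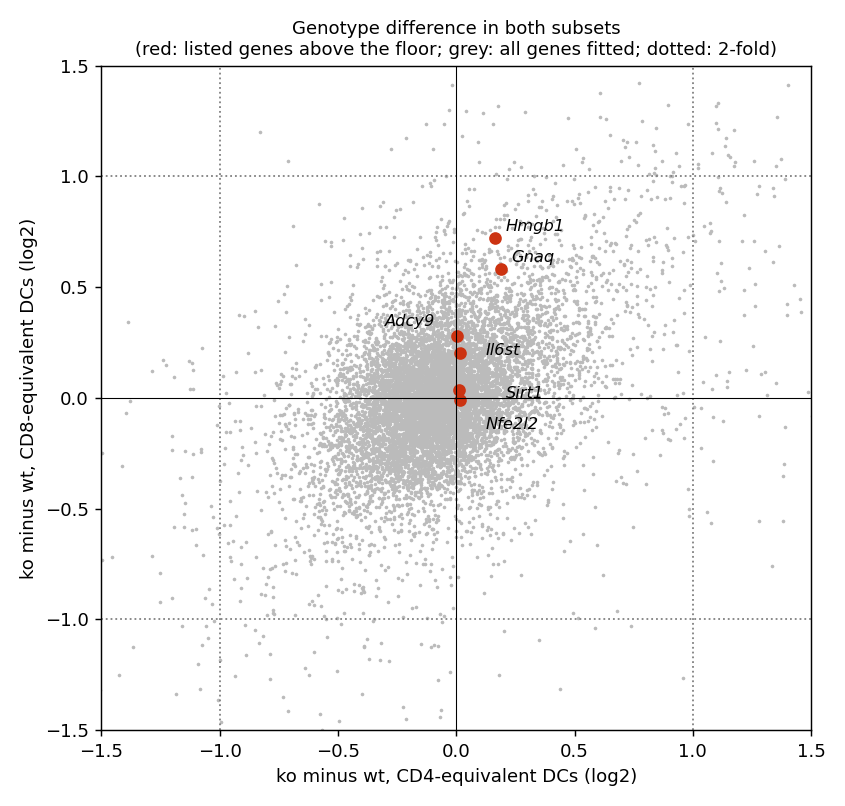
Difference of ko and wt in CD4-equivalent (x axis) and CD8-equivalent DCs (y axis), log2 scale, for the 6 members above the floor (red) and all 10239 genes fitted (grey); 128 genes outside 1.5 on either axis are not drawn. Hmgb1 (0.16, 0.72) and Gnaq (0.19, 0.58) lie above most of the grey points on the y axis, and the other 4 lie between 0.002 and 0.02 on the x axis.

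The genotype difference common to both subsets was tested with limma in 10239 genes, with terms for genotype and subset. The error comes from the disagreement between the subsets, with 1 residual degree of freedom plus 3.98 borrowed across genes. The resulting p-values reflect the spread of these arrays alone. With Benjamini-Hochberg adjustment it called 0 of 6 members for genotype, where 0.166% of genes were called. At an unadjusted p under 0.05 there were 2 of 6 members, Gnaq and Hmgb1, against 15.6% of genes, and limma with a trended and robust prior also called 0 members.

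Gnaq was higher in ko by 0.39 ± 0.15 (SE) on the log2 scale, with a 95% interval of 0.01 to 0.76 not adjusted for the number of genes (limma, adjusted p = 0.31, and 0.18 to 0.39 over the alternative settings; higher in 2 of 2 subsets). Hmgb1 was higher by 0.44 ± 0.17 (SE), with an interval of 0.003 to 0.88 (limma, adjusted p = 0.32, and 0.22 to 0.44 over the alternatives; higher in 2 of 2 subsets). For Adcy9 the estimate was 0.14 with an interval of -0.20 to 0.48, and for Il6st it was 0.11 with an interval of -0.21 to 0.43. The narrowest statements concern Nfe2l2, at 0.005 with an interval of -0.29 to 0.30, and Sirt1, at 0.02 with an interval of -0.28 to 0.32. For these 4 genes a rise of 2-fold lay outside the interval, and smaller changes of either sign lay inside it. Both ko arrays were above both wt arrays for 2 members, Gnaq and Adcy9, where 9.79% of genes were, and below for 0, where 18.1% were.

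**Figure D3:**
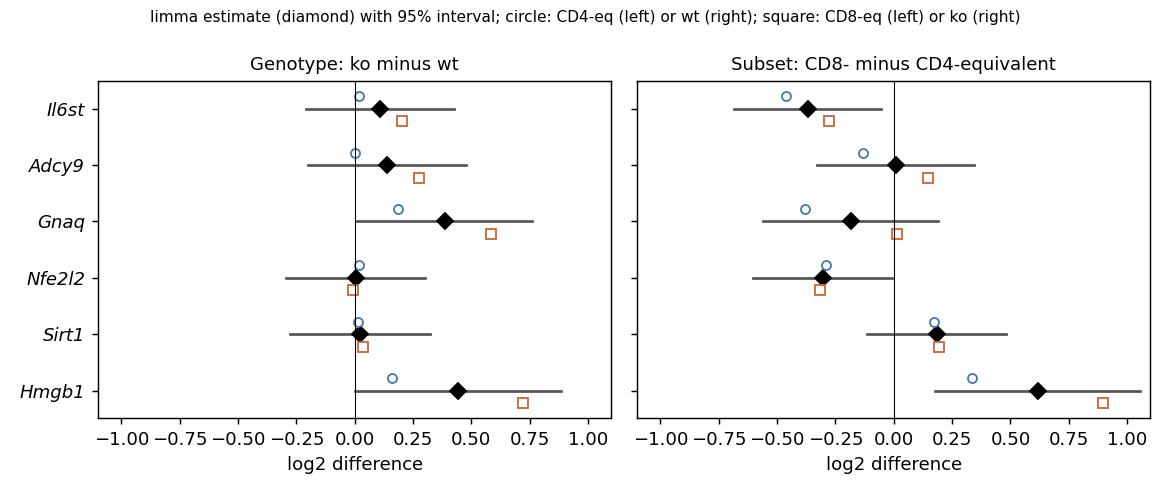
Estimated log2 difference (diamond) with its 95% interval (bar) from the additive limma fit, for genotype (left) and subset (right), with the single-pair differences as open symbols (circles: CD4-equivalent or wt; squares: CD8-equivalent or ko). The genotype intervals of Gnaq and Hmgb1 start just above 0 (0.01 and 0.003), and those of the other 4 members span it.

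Between the subsets 4 of 6 members had a larger estimate than between the genotypes, and the median absolute estimate was 0.24 for subset and 0.12 for genotype on the log2 scale. At 2-fold or more, 0 of 6 members differed between CD8- and CD4-equivalent DCs in wt and 0 of 6 in ko, where 5.24% and 7.29% of genes did. Higher values in CD8-equivalent DCs were found for 2 of 6 in wt and 4 of 6 in ko, against 54.8% and 62.8% of genes. limma called 0 of 6 for subset, where 14.3% of genes were called, and 3 of 6 had an unadjusted p under 0.05, where 33.3% of genes did. These were Hmgb1, higher in CD8-equivalent DCs by 0.62 ± 0.17 (SE, adjusted p = 0.075), Il6st, at -0.37 ± 0.12 (SE, adjusted p = 0.11), and Nfe2l2, at -0.30 ± 0.12 (SE, adjusted p = 0.14). The trended and robust prior moved these 3 past the threshold, with adjusted p-values of 0.036, 0.015 and 0.043, and median centring moved Hmgb1 (adjusted p = 0.038). Calls over all genes rose under these settings too, from 1467 to 2128 with the trended prior and 2101 with median centring. Both CD8-equivalent arrays lay above both CD4-equivalent arrays for Hmgb1 and Sirt1 (2 of 6, against 37% of genes) and below for Il6st and Nfe2l2 (2 of 6, against 21.3%).

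The difference in genotype effect between subsets uses the last degree of freedom and has no test. As a value it was largest for Hmgb1, whose genotype difference was greater by 0.56 in the CD8-equivalent pair. For Gnaq it was 0.39 greater, for Adcy9 0.28 and for Il6st 0.18. Sirt1 (0.02) and Nfe2l2 (-0.02) gave about the same value in both subsets. For the former 4 members the genotype difference was the larger one in CD8-equivalent DCs.

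Around Il6st, the other genes of the interleukin-6 and gp130 pathway gave 0 of 21 calls for genotype in either direction (limma, adjusted). At an unadjusted p under 0.05, 1 was higher and 2 were lower, where 7.34% and 8.27% of all genes were. Lifr, the receptor of leukaemia inhibitory factor that pairs with gp130, was higher in ko by 0.84 and 1.02 in CD4- and CD8-equivalent DCs (adjusted p = 0.064), and the trended and robust prior called it. Il6ra, the chain that binds interleukin-6, read 11.001 and 10.08 on the wt CD4- and CD8-equivalent arrays and 10.34 and 9.75 on the ko arrays. It was lower in CD8-equivalent DCs by limma (-0.75 ± 0.14 SE, adjusted p = 0.030), while the differences of ko and wt were -0.66 and -0.34 (adjusted p = 0.20).

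Socs3, another suppressor of this pathway, was also lower in CD8-equivalent DCs (-0.96 ± 0.17 SE, adjusted p = 0.028), with the ko CD8-equivalent value below the floor. Socs2 read 6.76 in wt and 5.91 in ko CD4-equivalent DCs, and neither CD8-equivalent array reached the floor. Set against the floor, its difference of CD8- and CD4-equivalent DCs was -1.08 or beyond in wt and -0.23 or beyond in ko, and it did not pass (adjusted p = 0.079). The median genotype difference of these genes was -0.15 for the CD4-equivalent and 0.02 for the CD8-equivalent pair, the latter turning to -0.02 after cyclic loess and -0.05 after median centring. Il6st, with 0.02 and 0.20, lay above both medians.

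Around Gnaq and Adcy9, the Gq and cyclic AMP list gave 0 of 24 calls for genotype (limma, adjusted), where 0.166% of all genes were called. At an unadjusted p under 0.05, 3 were higher and 3 lower, where 7.34% and 8.27% of all genes were. The same all-gene shares apply to the lists that follow. The highest of the Gq and cyclic AMP list was Gna11, the close paralog of Gnaq that couples to the same phospholipases. It read 8.21 and 9.15 on the wt CD4- and CD8-equivalent arrays and 9.75 and 10.37 on the ko arrays. Both ko values exceeded both wt values, and ko was 2.92-fold and 2.34-fold above wt (adjusted p = 0.053). Plcb3, a phospholipase C beta that Gq activates, was higher in ko by 0.91 and 0.63 (adjusted p = 0.097); it was singled out after its values were seen. The trended and robust prior called Gna11 and Plcb3, both higher, and no other gene of the list, where it called 307 of 10239 genes.

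No gene of the list other than Gna11 reached 2-fold between ko and wt in both subsets. The 3 genes lower at an unadjusted p under 0.05 (limma) were Prkar2a, Pde4a and Pde3b. Prkar2a (-0.60 and -0.53) and Pde4a (-0.44 and -0.26) were lower in ko in both subsets (limma, adjusted p = 0.13 and 0.29). They were not the only genes of the list lower in both. For Pde3b, a phosphodiesterase that degrades cyclic AMP, the differences of ko and wt were -1.78 and -0.44 in CD4- and CD8-equivalent DCs (adjusted p = 0.22). Rapgef3, which encodes the cyclic AMP sensor Epac1, read 6.07 in ko CD8-equivalent DCs and lay below the floor on the other arrays. Set against the floor, it was higher in ko CD8-equivalent DCs by at least 0.39, short of 2-fold. For subset, limma called 3 of the 24 genes higher in CD8-equivalent DCs and 1 lower, where 7.98% and 6.35% of all genes were. Higher were Gna11 (0.78), Plcb4 (0.68) and Prkar2a (0.65), with the wt CD4-equivalent value of Plcb4 (5.60) below the floor. Rgs1, which shortens G protein signals, was lower (-1.21, limma, adjusted p = 0.031). The list's median genotype difference was 0.04 and 0.02 in the respective pairs, and -0.05 in CD8-equivalent DCs after median centring.

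**Figure D4:**
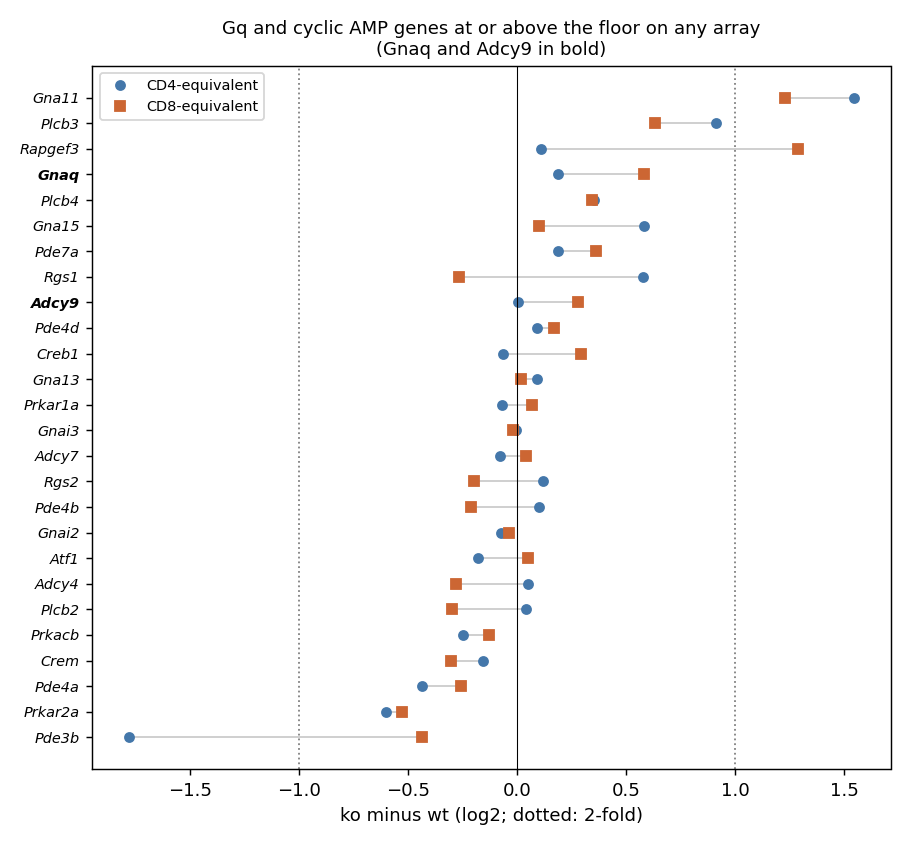
Difference of ko and wt (log2 scale) in CD4-equivalent (circles) and CD8-equivalent (squares) DCs for Gnaq, Adcy9 and the 24 other Gq and cyclic AMP genes at or above the floor on any array, ordered by the mean of both. Gna11 passes 2-fold on the right in both subsets (1.54 and 1.23), Gnaq (0.19 and 0.58) lies among the upper genes and Pde3b (-1.78 and -0.44) is lowest; the point of Rapgef3 beyond 2-fold is measured against a wt value below the floor.

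Around Nfe2l2, targets and partners of Nrf2 gave 0 of 18 calls for genotype (limma, adjusted; 1 higher and 1 lower unadjusted, and 0 with the trended prior). In CD4-equivalent DCs 6 of 18 had a higher value in ko, near the 36.2% of all genes, and in CD8-equivalent DCs 6 of 18 did, against 50.7%. The medians were -0.16 and -0.13, and 3 of the 18 genes were above 0 in both subsets, against 24.5% of all genes fitted. Hmox1, the haem oxygenase gene that Nrf2 activates, read 7.80 and 7.94 on the wt CD4- and CD8-equivalent arrays and 7.48 and 6.83 on the ko arrays. It was thus 2.15-fold lower in ko CD8-equivalent DCs (adjusted p = 0.23 over both subsets). Markers of macrophages and monocytes, where haem oxygenase is also found, summed to 4245 on that array against 9339 in wt. Their part in the Hmox1 difference was not tested. Bach1, a repressor that competes with Nrf2, was lower in CD8-equivalent DCs in both genotypes (-1.09 ± 0.12 SE, adjusted p = 0.012).

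Around Sirt1, the other sirtuins and their partners gave 0 of 14 calls for genotype (limma, adjusted; 1 higher and 1 lower unadjusted, and 0 with the trended prior), with medians of -0.12 and -0.10. Foxo1, a transcription factor that sirtuins deacetylate, was lower in CD8-equivalent DCs (-1.05 ± 0.15 SE, adjusted p = 0.018).

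Around Hmgb1, related chromatin proteins and receptors gave 0 of 12 calls for genotype (limma, adjusted; 1 higher unadjusted, and 0 with the trended prior), with medians of 0.10 and 0.04, the latter -0.03 after median centring. For subset, limma called 5 of 12 higher and 3 lower in CD8-equivalent DCs, where 7.98% and 6.35% of all genes were. The 5 include Cd24a, on whose product the subsets were sorted, so its call was set by the design. Hmgb3, a paralog of Hmgb1, was higher by 1.09 ± 0.17 (SE, adjusted p = 0.022) and Hmgn2, a nucleosome-binding protein, by 0.76 ± 0.12 (SE, adjusted p = 0.023). Havcr2, which encodes the HMGB1-binding receptor Tim-3, was higher by 1.81 ± 0.17 (SE, adjusted p = 0.0082), Cxcr4 by 0.71 (adjusted p = 0.024) and the sort marker Cd24a by 1.26 (adjusted p = 0.041). Lower were Tlr2 (-1.17), Tlr4 (-1.21) and Tlr9 (-0.69), the Toll-like receptors on the list (adjusted p = 0.014, 0.023 and 0.036).

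For Ash1l, a histone H3 lysine methyltransferase, related enzymes and partners were read in its place, together with Tnfaip3. They gave 0 of 13 calls for genotype (limma, adjusted), and 0 with the trended prior. Tnfaip3 was the 1 gene higher at an unadjusted p under 0.05. In CD8-equivalent DCs 13 of 13 had a higher value in ko, against 50.7% of all genes, with a median of 0.27 beside 0.004 over all genes, and 13 of 13 were higher after cyclic loess or median centring. In CD4-equivalent DCs 4 of 13 did, near the 36.2% of all genes, with a median of -0.05, or 7 of 13 with a median of 0.03 after cyclic loess. The highest in CD8-equivalent DCs was Nsd2 (0.55) and the lowest Morf4l1 (0.14). In CD4-equivalent DCs the highest was Tnfaip3 (0.33), an inhibitor of NF-kB reported as activated by Ash1l, and the lowest Nsd3 (-0.15). The whole list had 0 genes at 2-fold between the genotypes.

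Hmgb1 has many near-identical copies in the mouse genome, and 34 further probe sets were annotated to Hmgb1 together with other symbols. They read high, with mean values of 7.14 to 12.46 and a median of 12.15. Their differences of ko and wt ran from -0.09 to 0.22 in CD4-equivalent DCs (median 0.006) and from 0.008 to 0.32 in CD8-equivalent DCs (median 0.21). All 34 thus lay above 0 in CD8-equivalent DCs, but below the 0.72 of the single-gene probe set. Between subsets their median was 0.20 in wt and 0.38 in ko, beside 0.34 and 0.90. The size of the Hmgb1 difference therefore depends on the probe set, and the shared sets may read other genes. The 34 share probes and sequence and are not independent readings.

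**Figure D5:**
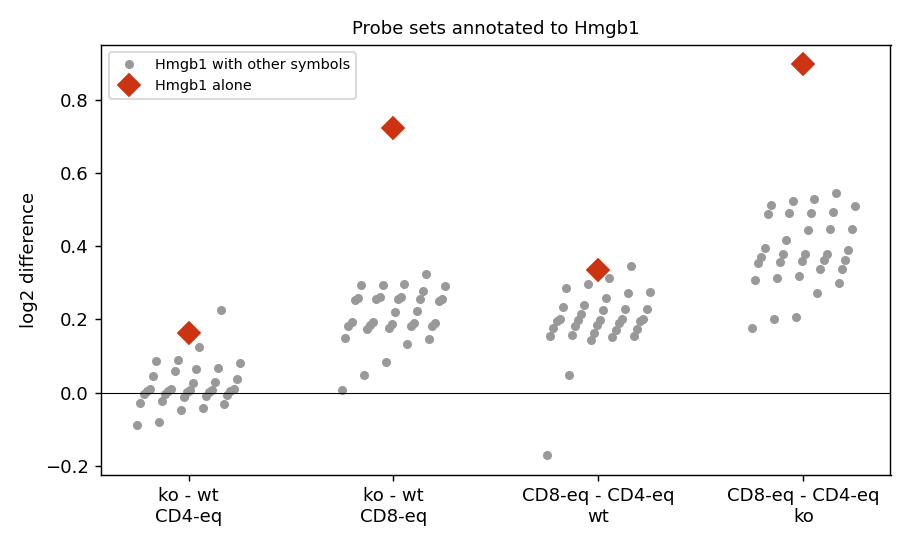
Log2 difference in each pairwise comparison for the probe set annotated to Hmgb1 alone (diamond) and the 34 annotated to Hmgb1 with other symbols (grey points, spread sideways for legibility). In ko minus wt of CD8-equivalent DCs the single-gene set (0.72) lies above the whole range of the shared sets (0.008 to 0.32).

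Only Gnaq and Hmgb1 varied by at least 0.5 log2 units over the arrays, and for these the genes of most similar profile were named by the Euclidean distance between mean-centred log2 values over the 4 arrays. For Gnaq they were Evi5 (0.03), Lmbrd2 (0.05) and Fndc3a (0.07). For Hmgb1 they were Ccdc34 (0.07), Msantd3 (0.08) and Ankle1 (0.08). Msantd3 lay below the floor on every array but ko CD8-equivalent (6.03), and Ankle1 on the wt CD4-equivalent array (5.65), so their profiles rest partly on uninformative values. Evi5, for example, read 8.14 and 7.74 on the wt CD4- and CD8-equivalent arrays and 8.31 and 8.30 on the ko arrays. With 4 arrays many genes fall close to any profile.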

How the data were processed

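The deposited table holds 1 log2 value per probe set and array. Per the submitters' processing notes the authors used RMA and Partek; the sources used here give no versions. The log base was inferred from the range of 3.52 to 14.3. No scanner values or detection calls were used.

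Of 35399 probe sets, 21789 had 1 gene symbol in the platform annotation of 2016, 1621 several and 11989 none here. The single-symbol probe set with the highest mean stood for its gene (19938 genes, 999 of them with several sets). The 8 measured members matched RefSeq (GRCm38.p6) by gene ID. Pairwise differences were counted where the higher value reached the floor of 5.68. limma 3.58.1 in R 4.3.3 (lmFit, eBayes, two-sided, Benjamini-Hochberg over 10239 genes, threshold 0.05) fitted genotype and subset; it was tested on simulated data. The members and lists were chosen with earlier results of these data known. Pathway genes were named when called by limma or at 2-fold, and otherwise as the highest and lowest of their list. Plcb3 and Pde4a were named outside this rule. The shared Hmgb1 probe sets were added as an alternative after seeing the data, as were the lists' medians under other scalings.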

Additional observations from a re-analysis of the deposited data

Results flagged for a closer look

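Some genes differed in opposite directions in the groups compared, and none of these differences was tested, because 1 array a group leaves no degree of freedom for it. The number given for each is the change in the genotype difference from CD4- to CD8-equivalent DCs on the log2 scale. Among the members, the genotype difference changed sign for Nfe2l2 (-0.025), whose values were near 0 in both subsets. The subset difference changed sign between wt and ko for Gnaq (0.39) and Adcy9 (0.28), and for Gnaq it did not after cyclic loess or median centring, where ko was also below 0.

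Of 102 pathway genes at or above the floor on any array, 45 had opposite signs in the subsets and 27 were above 0 in both. Of all 10239 genes fitted, 24.5% were above 0 in both subsets and 37.3% below 0 in both. Apart from any exact ties, the remaining genes had opposite signs, so such signs were common over all genes too. The values here are those of the genes named in the report. The genotype difference was negative in CD4-equivalent and positive in CD8-equivalent DCs for Havcr2 (0.54), Hmgb3 (0.53), Nsd3 (0.52), Foxo1 (0.39) and Morf4l1 (0.19). It was positive in CD4-equivalent and negative in CD8-equivalent DCs for Cd24a (-1.05), Rgs1 (-0.85), Tlr4 (-0.69) and Tlr9 (-0.31). For Socs2 the computed value was 1.24, but both CD8-equivalent values lay below the floor, so the sign there cannot be read.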

How the results depend on the processing

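The count of 0 members called for genotype held under every alternative run, namely no floor, a floor 0.5 higher or lower, cyclic loess, median centring, a trended and robust prior and the mean of a gene's probe sets. Over all genes the genotype calls were 17, but 3 with no floor and 100 with the higher floor. They were 240 with median centring and 307 with the trended prior. Subset calls over all genes were 1467, but 946 with no floor, 2101 with median centring and 2128 with the trended prior. Members called for subset were 0, but 1 with median centring and 3 with the trended prior. At 1.5-fold in place of 2-fold, 768 and 807 genes differed by genotype in CD4- and CD8-equivalent DCs, against 234 and 214. In CD8-equivalent DCs 1 member did so (Hmgb1), where 8.09% of 9972 genes did. Between the subsets of ko 1 member differed by 1.5-fold (Hmgb1), where 20.2% of 10118 genes did. Some values near 0 changed sign: the genotype estimate of Nfe2l2 was -0.017 with median centring, and the subset estimate of Adcy9 -0.00040 with cyclic loess. The genes at 2-fold or more that were higher made up 59.4% in CD4-equivalent DCs by genotype and 69.3% after cyclic loess; among those between the subsets of ko it was 46.5% and 34.6%, with the median of all genes shifted by -0.10, and among those by genotype in CD8-equivalent DCs 53.3%, or 40.9% with median centring. Members have 1 single-symbol probe set each, so other single-symbol sets could not be tried. The subset term of the limma fit pairs ko with wt within each subset; the labels give no replicate numbers for any further block, and with 1 array a group no replicate could be left out. Signal near background limits Adcy9, and Il6 and Socs1 could not be read.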
